A study of Saccharomyces cerevisiae with 16 samples.

Results

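The comparison set budding yeast strains that keep a shorter part of the FCP1 gene against a strain that keeps a longer part, all of them without CDK8. It rests on 6 of the 16 arrays of the series and on 3 of its 8 strains, which were chosen by genotype label alone. The strains with short truncations carry FLAG-tagged fcp1-trunc-1:609 or fcp1-trunc-1:594 together with cdk8-del, with 2 arrays each, and they were pooled to 4 arrays. The strain set against them carries FLAG-tagged fcp1-trunc-1:666 with cdk8-del and has 2 arrays. They are called 1:609 cdk8-del, 1:594 cdk8-del and 1:666 cdk8-del here, and the pair of 1:609 and 1:594 is called the short truncations. The numbers in a label are read as the first and last positions kept, so the short truncations keep less of FCP1 than 1:666. All 3 strains thus share a truncated FCP1 allele, a FLAG tag and the deletion of CDK8, and each label stands for 1 strain. No oxidant or other treatment is part of the labels, and cultures were harvested in mid-log phase after growth in a plate reader. On each array the RNA of 1 strain in one dye was set against a common reference pool in the other, and the dyes were exchanged between the arrays lettered a and b. The sources used here do not give the genotype of the pool. Nothing says whether the paired arrays of a strain had cultures of their own, so p-values cover only the spread between arrays, which may be technical. With 1 strain for each label, a difference between truncations and any other difference between these strains cannot be told apart.

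Fcp1 is an essential phosphatase that acts on the C-terminal domain of the largest subunit of RNA polymerase II. Cdk8, encoded by SSN3, is the kinase of a Mediator module that also holds the cyclin C gene SSN8 and the subunits SRB8 and SSN2. This kinase is known to phosphorylate the polymerase domain and several transcription factors, Msn2 and Gcn4 among them. Msn2 and its relative Msn4 switch on the general stress genes of yeast, which encode protectants such as small heat shock proteins, catalase T and the enzymes of trehalose synthesis.

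The genes that mark the genotypes were examined first. FCP1, on the scale of log2 strain over reference used for every level here, read -3.09 and -3.29 on the 1:609 cdk8-del arrays and -3.18 and -3.69 on the 1:594 cdk8-del arrays, against -0.16 and -0.38 on the 1:666 cdk8-del arrays. All 4 arrays of the short truncations lay far below both arrays of 1:666 cdk8-del, and the difference was -3.04 ± 0.07 (standard error of limma, as for every difference here; adjusted p = 7.06e-11), a fold of 8.24. The position of the probe within FCP1 is not known here, so less transcript and a probe beyond the end of the truncated gene cannot be told apart. LYS2, an enzyme of lysine synthesis and a common selection marker, read 3.13 and 2.83 in 1:609 cdk8-del and 3.15 and 2.99 in 1:594 cdk8-del, against -0.11 and -0.09 in 1:666 cdk8-del. It was thus high on the 4 arrays of the short truncations and near the reference pool on the other pair, with the largest rise of all named genes at 3.13 ± 0.07 (adjusted p = 7.57e-11). MET17, the sulfhydrylase of methionine synthesis and another common marker, separated the strains in a different way. Its level was -4.74 and -4.54 in 1:609 cdk8-del and -0.60 and -0.27 in 1:594 cdk8-del, against -0.17 and 0.07 in 1:666 cdk8-del. MET17 was low in 1:609 cdk8-del alone among these 3 strains, whereas its mean lay between -4.92 and -4.51 in each of the 5 strains that keep CDK8. The pooled difference of -2.49 ± 0.10 (adjusted p = 4.44e-08) was called but is no shared property of the short truncations: with the strains as the units it had an adjusted p of 0.325, and with 1 common mean for the short truncations 0.0828. The other marker genes URA3, LEU2, HIS3, TRP1 and ADE2 were not called, with differences between -0.09 and 0.05. LYS2, FCP1 and MET17 show that the strains differ at marker genes as well as in FCP1, and the part of these in the results that follow was not tested.

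The SSN3 probe did not exceed the local background by 3 of its standard deviations on any of the 6 arrays, so its levels carry no fold between the strains. Its partners SSN8, SRB8 and SSN2 were not called, with differences of -0.07, 0.06 and -0.12. Among the nearest named genes on the chromosomes, the neighbours DSK2 and PRM15 of FCP1 differed by 0.23 and -0.20, and the neighbours YLR302C and ACO1 of MET17 by 0.02 and -0.04. LYS2 lies next to TKL2, a transketolase gene that was called lower at -1.24 ± 0.10, and next to RAD16, at -0.46 ± 0.06 and not called. Of 65 called genes that matched the gene table, 4 had a called neighbour.

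A probe was called when its Benjamini-Hochberg adjusted p from limma over all 6388 probes was under 0.01 and its fold above 1.7, a log2 difference of 0.77. The replicate letter, which is also the dye orientation, was a block in the fit. The short truncations had 10 probes called higher than in 1:666 cdk8-del (0.157% of those tested) and 66 called lower (1.03%), of which 9 and 57 carry a gene name. The 4 arrays of the short truncations lay entirely above both others for 10 of the 10 higher probes and entirely below them for 65 of the 66 lower ones. The calls came from these same arrays, so this separation describes the called probes and adds no support to the calls. The share of all probes that separate in this way was not counted. Genes that were not called separated too, such as SSN2 (-0.12) below and STE6 (0.11) above, so these counts cannot be judged alone. Without the replicate block 50 probes were called, 8 higher and 42 lower. The typical probe differed by -0.01. Most calls were thus lower in the short truncations, and the higher ones were few.

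**Figure D1:**
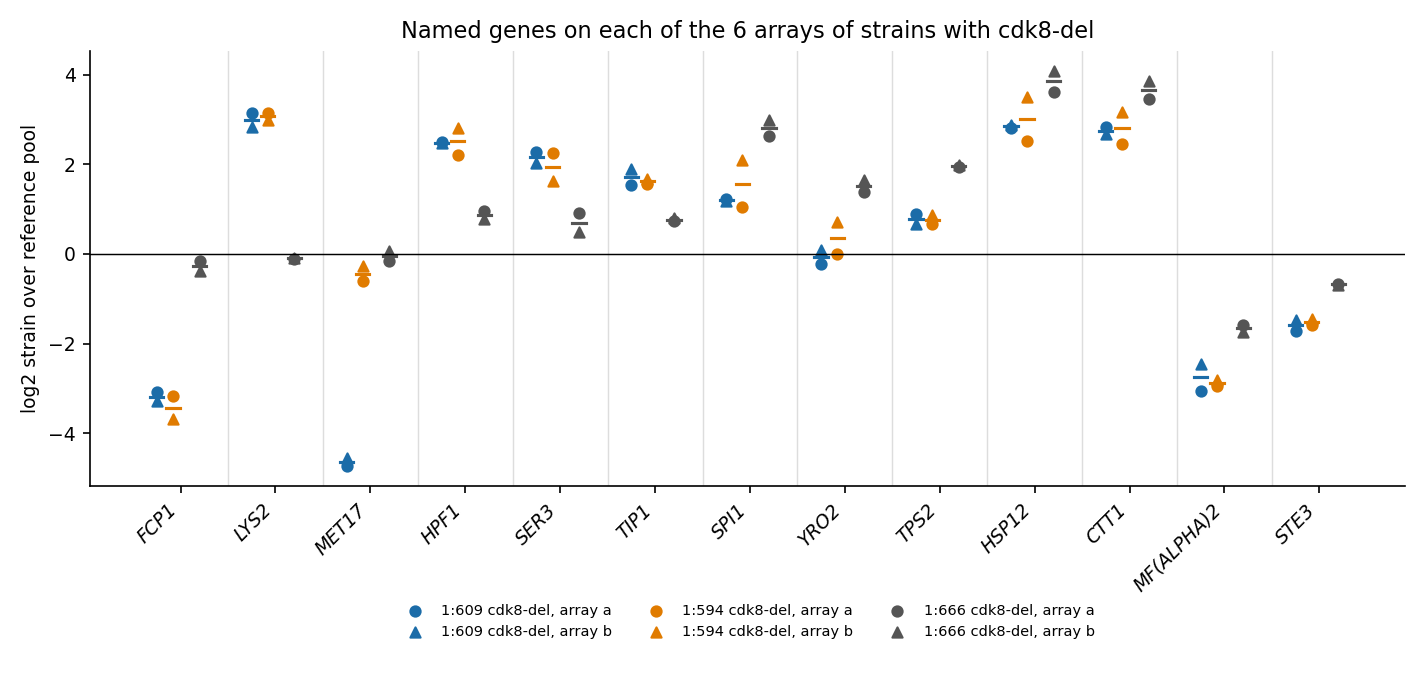
Level of 13 named genes (vertical axis, log2 strain over reference pool) on each of the 6 arrays, with 1:609 cdk8-del in blue, 1:594 cdk8-del in orange and 1:666 cdk8-del in grey; circles are a arrays, triangles b arrays, and lines strain means. For every gene shown the 4 points of the short truncations lie on one side of the 2 of 1:666 cdk8-del. MET17 is near -4.64 in 1:609 cdk8-del and near -0.44 in 1:594 cdk8-del.

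General stress genes made up the largest group among the falls. Of 55 genes on a list of Msn2 and Msn4 targets, which also holds MSN2 and MSN4 themselves, 26 were called lower in the short truncations and 0 higher, and 49 lay below 0. The median difference over the list was -0.66, beside -0.01 over all probes. Over all probes 1.03% were called lower and 0.157% higher. The members of this and the other lists were chosen with earlier results of these data known, so such counts are no separate support. Without the replicate block 17 of the 55 were called lower. Although lower than in 1:666 cdk8-del, these genes stood above the reference pool in all 3 strains. The median level over the list was 0.92 and 0.82 on the 1:609 cdk8-del arrays and 0.80 and 1.18 on the 1:594 cdk8-del arrays, against 1.38 and 1.59 on the 1:666 cdk8-del arrays. The mean of the short truncations was above 0 for 52 of the 55 genes, and that of 1:666 cdk8-del for 55. In the strains with the same truncations that keep CDK8 this median was -0.17 in 1:609 and -0.01 in 1:594, against -0.22 in 1:666. The short truncations without CDK8 therefore lay between these CDK8-carrying strains and 1:666 cdk8-del on these genes.

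**Figure D2:**
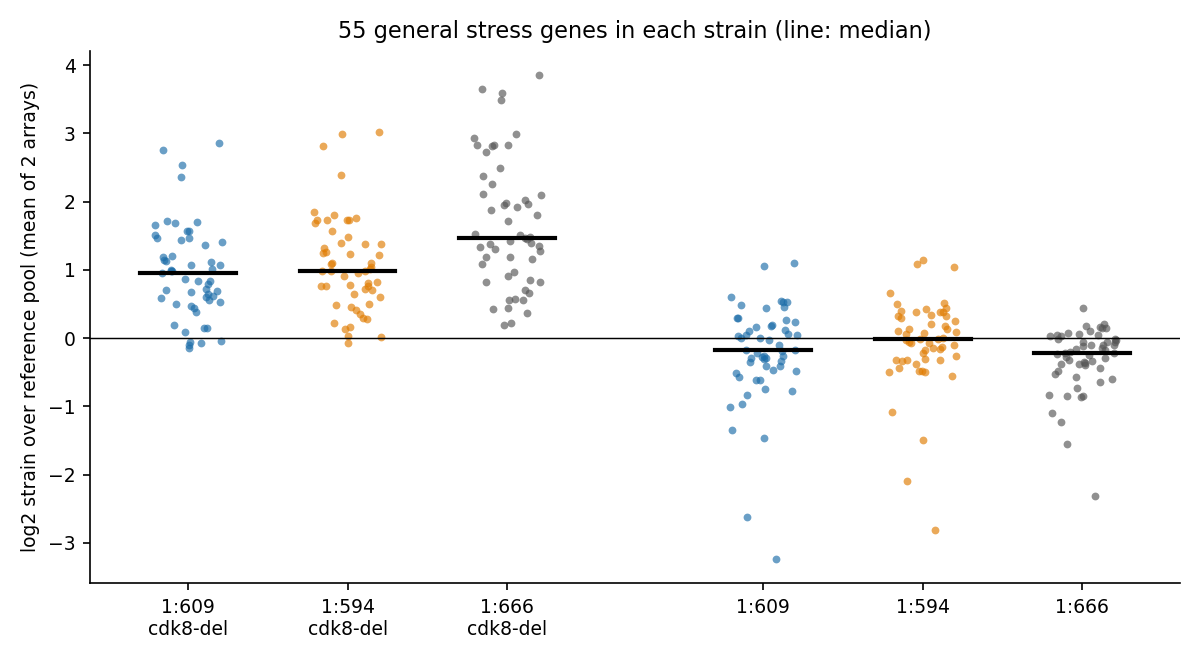
Levels of the 55 general stress genes (points, vertical axis, log2 strain over reference pool, mean of 2 arrays) in 6 strains, with the median of each strain as a black line. The medians are 0.95 in 1:609 cdk8-del and 0.98 in 1:594 cdk8-del, against 1.47 in 1:666 cdk8-del, and -0.17 and -0.01 in 1:609 and 1:594, against -0.22 in 1:666.

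SPI1, a cell wall protein induced in stationary phase, had the largest fall on the stress list. It read 1.23 and 1.18 in 1:609 cdk8-del and 1.04 and 2.10 in 1:594 cdk8-del, against 2.62 and 2.997 in 1:666 cdk8-del. The groups did not overlap, and the difference was -1.42 ± 0.18 (adjusted p = 1.59e-04). YRO2, a plasma membrane protein linked to acetic acid tolerance, read -0.21 and 0.08 in 1:609 cdk8-del and -0.00 and 0.70 in 1:594 cdk8-del, against 1.38 and 1.65 in 1:666 cdk8-del. It fell by 1.37 ± 0.11 (adjusted p = 5.04e-06), although with the strains as the units the call was lost at an adjusted p of 0.0119. Its relative MRH1 was also lower, at -0.90 ± 0.09, with an adjusted p of 1.96e-05 and of 0.0246 without the replicate block. The third gene of that family, HSP30, a membrane heat shock protein, differed by 0.38 ± 0.18 and was not called. GND2 and TKL2, stress-induced copies of pentose phosphate enzymes, fell by 1.28 ± 0.10 and 1.24 ± 0.10. NQM1, a transaldolase, fell by 1.24 ± 0.11. MSC1, a mitochondrial protein of little known function, fell by 1.26 ± 0.13, and RTC3, a protein of RNA metabolism, by 1.23 ± 0.15. YGP1, a secreted glycoprotein made on nutrient limitation, fell by 1.21 ± 0.09. DDR48, a protein named for its induction by DNA damage, read 0.04 and 0.07 in 1:609 cdk8-del and 0.01 and 0.24 in 1:594 cdk8-del, against 1.44 and 1.21 in 1:666 cdk8-del. It fell by 1.23 ± 0.08 (adjusted p = 1.74e-06). DDR48 was thus at the level of the reference pool in the short truncations and above it in 1:666 cdk8-del.

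Among well known markers of the stress response, HSP12, HSP26 and CTT1 fell by less than SPI1, and their calls depended on single arrays. HSP12, a small heat shock protein that protects membranes, read 2.82 and 2.89 in 1:609 cdk8-del and 2.53 and 3.50 in 1:594 cdk8-del, against 3.62 and 4.09 in 1:666 cdk8-del. All 4 arrays of the short truncations were lower, but array b of 1:594 cdk8-del came close to array a of 1:666 cdk8-del. Its fall of 0.92 ± 0.16 (adjusted p = 0.00123) had an adjusted p of 0.0384 without the replicate block. HSP12 was no longer called without array a of 1:594 cdk8-del (-0.73), without array a of 1:666 cdk8-del (-1.03) or without array b of 1:666 cdk8-del (-0.82). HSP26, another small heat shock protein, read 2.55 and 2.51 in 1:609 cdk8-del and 2.60 and 3.39 in 1:594 cdk8-del, against 3.48 and 3.69 in 1:666 cdk8-del. Its fall of 0.82 ± 0.16 (adjusted p = 0.00208) had an adjusted p of 0.0531 without the block, of 0.0404 with the strains as the units and of 0.0288 with median centring. The HSP26 call was lost without array b of 1:609 cdk8-del (-0.73), array a of 1:594 cdk8-del (-0.67), array a of 1:666 cdk8-del (-0.79) or array b of 1:666 cdk8-del (-0.86). CTT1, the cytosolic catalase, read 2.82 and 2.68 in 1:609 cdk8-del and 2.46 and 3.16 in 1:594 cdk8-del, against 3.45 and 3.85 in 1:666 cdk8-del. It fell by 0.87 ± 0.13 (adjusted p = 5.42e-04), with an adjusted p of 0.0106 without the block and of 0.0179 with median centring, and the call was lost without array a of 1:594 cdk8-del (-0.72) or array b of 1:666 cdk8-del (-0.74). The other catalase gene, CTA1, differed by 0.04, and CTT1 was the 1 gene called of 32 that encode catalases, superoxide dismutases, peroxiredoxins and thioredoxins. The transcripts of the regulators themselves were not called. MSN2 differed by -0.52 ± 0.06 (adjusted p = 4.18e-05), which is below the fold limit, and MSN4 by -0.21 ± 0.06. The heat shock genes HSP104 and SSA4, which also answer to the factor Hsf1, differed by 0.22 and 0.00.

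Storage carbohydrate genes were lower as well, and those called also stand on the stress list. Of 21 genes of trehalose and glycogen metabolism 6 were called lower and 0 higher, beside 1.03% and 0.157% of all probes. The list median was -0.34, and 3 of the genes were called without the replicate block. TPS2, the trehalose phosphatase, read 0.90 and 0.68 in 1:609 cdk8-del and 0.67 and 0.86 in 1:594 cdk8-del, against 1.95 and 1.98 in 1:666 cdk8-del. The groups were far apart for this gene, which fell by 1.19 ± 0.07 (adjusted p = 1.04e-06). GPH1, the glycogen phosphorylase, fell by 1.19 ± 0.13 (adjusted p = 4.63e-05). PGM2, a phosphoglucomutase that feeds both stores, fell by 1.08 ± 0.13, with an adjusted p of 9.05e-05 and of 0.0286 without the block. TPS1, TSL1 and the glycogen synthase GSY2 were called lower too, at -0.81, -1.06 and -0.81. The glycogen branching enzyme GLC3, the other glycogen synthase, GSY1, and the trehalase NTH1 were not called, at -0.34, -0.47 and -0.12. Of 23 genes of hexose transport and hexose phosphorylation 3 were called lower and 0 higher, beside the same shares of all probes. The median of this list was -0.33. HXT5, a hexose transporter of slow growth, read 0.13 and 0.20 in 1:609 cdk8-del and -0.16 and 0.41 in 1:594 cdk8-del, against 1.02 and 1.32 in 1:666 cdk8-del. It fell by 1.03 ± 0.08 (adjusted p = 4.38e-06) and was near the reference pool in the short truncations. The hexokinase HXK1 and the glucokinase GLK1, both also on the stress list, fell by 1.001 ± 0.14 and 0.89 ± 0.10. Without the block their adjusted p was 0.0319 and 0.0107. The low-affinity transporter HXT1 and the high-affinity transporter HXT2 were not called, at -0.71 and 0.58. None of 19 glycolysis genes was called, and their median was -0.23.

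**Figure D3:**
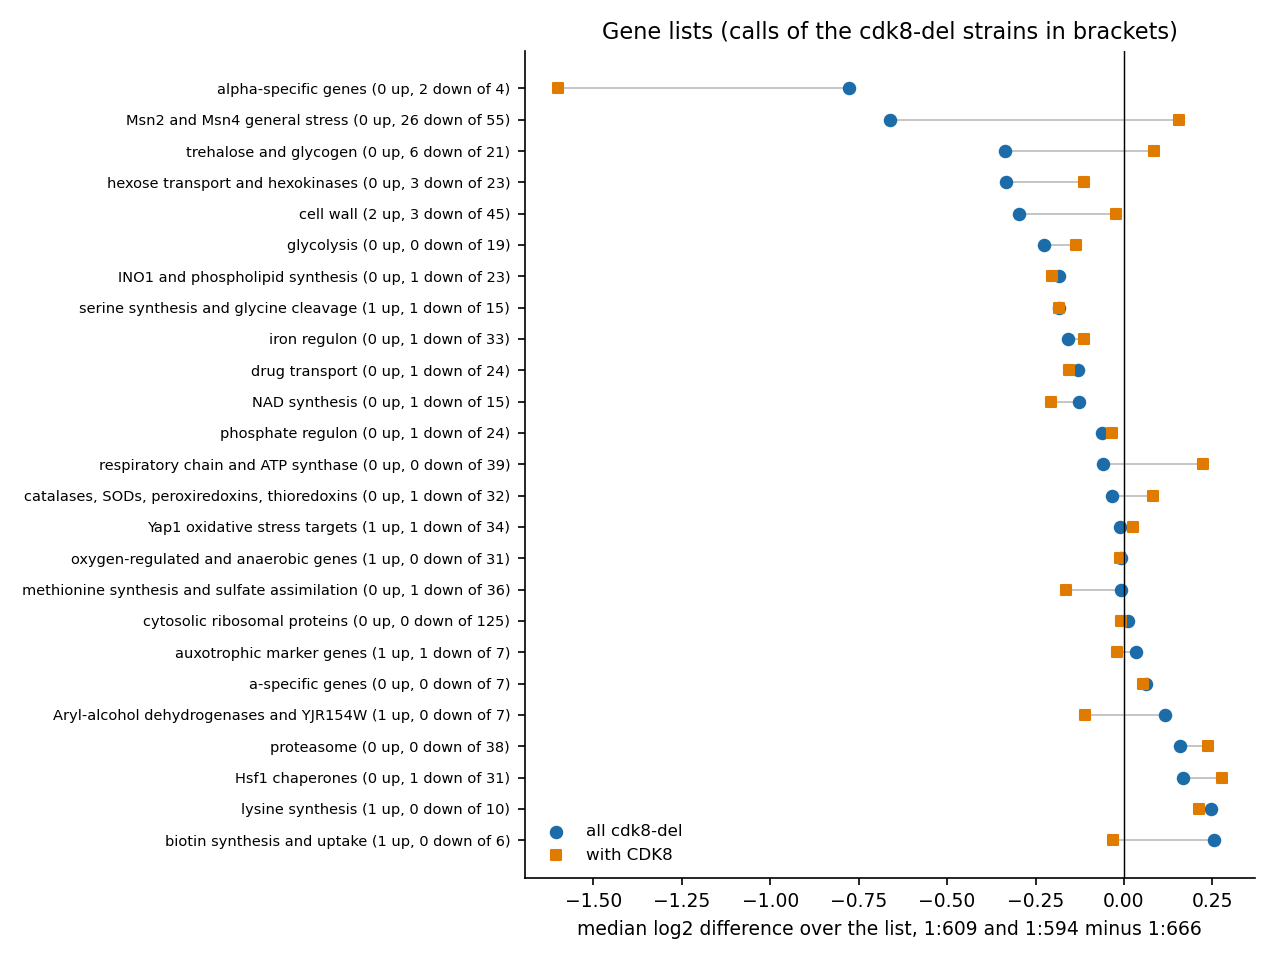
Median log2 difference (horizontal axis) over the members of each of 25 gene lists, short truncations minus 1:666, among the cdk8-del strains (blue circles) and among the strains with CDK8 (orange squares), with the number called higher and lower in the cdk8-del strains in brackets. The stress list has medians of -0.66 without CDK8 and 0.16 with it, and the alpha-specific genes -0.78 and -1.60.

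Mating genes of alpha cells formed a second group. The list of alpha-specific genes has 6 members, of which 4 had a named probe. Of these 4, 2 were called lower, beside 1.03% of all probes. MF(ALPHA)2, which encodes the alpha-factor pheromone, read -3.06 and -2.45 in 1:609 cdk8-del and -2.94 and -2.81 in 1:594 cdk8-del, against -1.58 and -1.74 in 1:666 cdk8-del. It fell by 1.16 ± 0.12 (adjusted p = 4.7e-05), and all 6 arrays were below the reference pool. STE3, the receptor for a-factor, read -1.71 and -1.47 in 1:609 cdk8-del and -1.58 and -1.46 in 1:594 cdk8-del, against -0.67 and -0.69 in 1:666 cdk8-del, and fell by 0.88 ± 0.06 (adjusted p = 3.11e-06). The agglutinin SAG1 and the second pheromone gene MF(ALPHA)1 were not called, at -0.68 ± 0.11 and -0.34 ± 0.11. None of the 7 genes specific to a cells was called, and their median was 0.06: the pheromone genes MFA1 and MFA2 each differed by 0.06, the receptor STE2 by 0.06 and the transporter STE6 by 0.11. Lower alpha-specific levels were therefore not accompanied by called changes in a-specific genes.

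Cell wall genes went both ways, with 2 called higher and 3 called lower of 45 and a median of -0.30. Over all probes 0.157% were called higher and 1.03% lower. HPF1, a mannoprotein that reduces protein haze in wine, rose by 1.63 ± 0.12 (adjusted p = 4.26e-06). It read 2.49 and 2.48 in 1:609 cdk8-del and 2.21 and 2.81 in 1:594 cdk8-del, against 0.97 and 0.77 in 1:666 cdk8-del, so that all 6 arrays were above the reference pool. TIP1, a mannoprotein induced by cold, read 1.54 and 1.90 in 1:609 cdk8-del and 1.57 and 1.68 in 1:594 cdk8-del, against 0.73 and 0.80 in 1:666 cdk8-del, and rose by 0.90 ± 0.07 (adjusted p = 3.78e-06). The lower members were SPI1, already counted on the stress list, and the wall glucanases DSE2 and SCW11. These glucanases fell by 0.83 ± 0.05 (adjusted p = 7.55e-07) and 0.82 ± 0.05 (adjusted p = 1.62e-06). DSE2 was just under the fold limit with median centring (-0.74), and SCW11 with the deposited log2 ratios (-0.75).

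The other named rises came from separate pathways. SER3, the first enzyme of serine synthesis, read 2.29 and 2.04 in 1:609 cdk8-del and 2.25 and 1.62 in 1:594 cdk8-del, against 0.92 and 0.48 in 1:666 cdk8-del. It rose by 1.35 ± 0.09 (adjusted p = 1.95e-06), whereas its paralogue SER33 differed by -0.05. In the opposite direction, the glycine decarboxylase GCV2 fell by 0.90 ± 0.07 (adjusted p = 4.8e-06), and its partners in glycine cleavage, GCV1 and GCV3, were not called at -0.69 and -0.63. SSP2, a spore wall gene, and GAS2, a wall glucanosyltransferase made in meiosis, rose by 0.94 ± 0.10 and 0.80 ± 0.09. GAS2 was not called without array a of 1:609 cdk8-del (0.75), with plain background subtraction (0.73), on external control spots (0.70) or with the deposited log2 ratios (0.76). SRO77, a protein of exocytosis, rose by 0.86 ± 0.05 (adjusted p = 7.55e-07). BIO4, an enzyme of biotin synthesis, read -0.54 and 0.09 in 1:609 cdk8-del and -0.57 and -0.17 in 1:594 cdk8-del, against -1.0 and -1.29 in 1:666 cdk8-del. It was 0.85 ± 0.14 higher (adjusted p = 6.82e-04), with an adjusted p of 0.0128 without the replicate block, and it was not called on external control spots (0.76), without array b of 1:609 cdk8-del (0.72) or without array b of 1:666 cdk8-del (0.59). Its cluster neighbours BIO3 and BIO5 were not called, at 0.39 and 0.12. AAD3, of the aryl-alcohol dehydrogenase family, read -0.75 and -1.20 in 1:609 cdk8-del and -0.96 and -1.71 in 1:594 cdk8-del, against -2.09 and -2.39 in 1:666 cdk8-del. All 6 arrays were below the reference pool, least so in the short truncations, and the difference of 1.08 ± 0.10 (adjusted p = 1.96e-05) had an adjusted p of 0.0206 without the block and of 0.0136 with the strains as the units. The relatives AAD4, AAD6, AAD10, AAD14 and AAD15 were not called, at 0.10, 0.14, 0.12, 0.06 and 0.41. AAD genes are near-identical copies in part, and whether the probes tell them apart was not tested.

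Several lists had 1 called member each, which describes that gene and not the list. BNA5, an enzyme of NAD synthesis from tryptophan, fell by 0.83 ± 0.06 (adjusted p = 2.34e-06) while its pathway neighbours BNA1, BNA2, BNA4 and BNA6 were not called at -0.40, -0.13, -0.09 and -0.00. PDR15, an ABC transporter of the drug resistance network, fell by 0.91 ± 0.07 (adjusted p = 4.38e-06). PHM7, a membrane protein that stands on the phosphate list as well as the stress list, fell by 1.16 ± 0.15, while the phosphate transporter PHO84 differed by -0.16 and was not called. OPI3, a methyltransferase of phosphatidylcholine synthesis, fell by 0.81 ± 0.07, and was not called with median centring (-0.72), without array a of 1:594 cdk8-del (-0.77) or without array b of 1:666 cdk8-del (-0.73). INO1, the inositol synthase, differed by -0.62 and was not called. FIT2, a wall mannoprotein of iron uptake, fell by 0.85 ± 0.15 (adjusted p = 0.00122). Its adjusted p was 0.0548 without the block and 0.0102 with the strains as the units, and the call was lost without array a of 1:594 cdk8-del (-0.76), array a of 1:666 cdk8-del (-0.91) or array b of 1:666 cdk8-del (-0.78). Of 34 targets of the oxidative stress factor Yap1, 1 was called higher (AAD3) and 1 lower (CTT1), and the median was -0.01.

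Of the 51 lists, 28 had no called member. Among them were the 125 measured cytosolic ribosomal protein genes (median 0.01), 82 genes of ribosome biogenesis (0.05), 68 mitochondrial ribosomal protein genes (-0.02), 38 proteasome genes (0.16) and 39 genes of the respiratory chain (-0.06). The 12 subunits of RNA polymerase II, which carries the domain that Fcp1 acts on, had a median of 0.08, and the 21 core Mediator subunits one of 0.01. The 47 measured genes of amino acid synthesis under Gcn4 also had a median of 0.01. Of 31 chaperone genes under Hsf1 only HSP26 was called, and the list had a median of 0.17. No call in these lists means that no member passed the limits, and not that their levels were equal: 2673 of the 6388 probes had an unadjusted p under 0.05, 1133 of them higher and 1540 lower.

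Each short truncation was then set against 1:666 cdk8-del on its own. 1:609 cdk8-del had 9 probes called higher (0.141%) and 71 called lower (1.11%). For 1:594 cdk8-del, 12 were called higher (0.188%) and 60 lower (0.939%). Both comparisons use the same pair of 1:666 cdk8-del arrays, so their values are given side by side and their likeness is not tested. HPF1 differed by 1.61 in 1:609 cdk8-del and 1.64 in 1:594 cdk8-del, SER3 by 1.46 and 1.24, and AAD3 by 1.26 and 0.91. TPS2 differed by -1.18 and -1.20 in the same order, SPI1 by -1.60 and -1.24, YRO2 by -1.58 and -1.16, and HSP26 by -1.06 and -0.59. For MF(ALPHA)2 the pair was -1.10 and -1.22. The MET17 values of -4.59 and -0.39 were the farthest apart among the named genes. Some named genes that were not called in the pooled comparison had opposite signs in the same order. HSP30 differed by -0.32 and 1.08, and RGI1, SPG4 and ATO2, described below, by -0.53 and 0.51, -0.05 and 0.94, and -0.30 and 0.52.

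**Figure D4:**
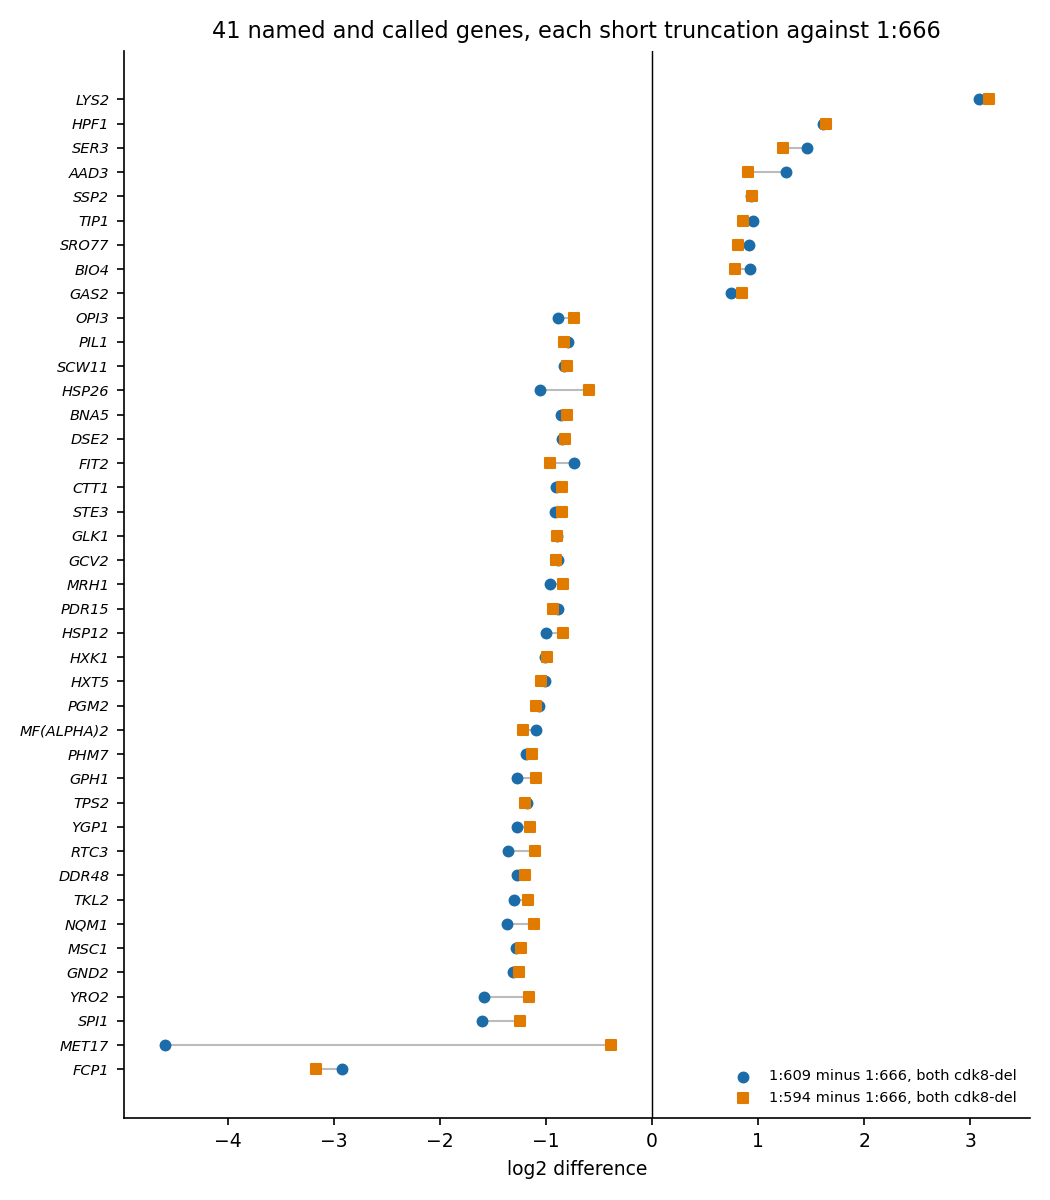
Log2 difference (horizontal axis) of 41 named and called genes in 1:609 cdk8-del (blue circles) and in 1:594 cdk8-del (orange squares), each minus 1:666 cdk8-del. The pair of points lies close together for most genes, HSP26 and YRO2 are farther apart, and MET17 stands at -4.59 and -0.39.

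The direct comparison of 1:594 cdk8-del with 1:609 cdk8-del called 6 probes higher (0.0939%) and 0 lower. With no adjustment, 181 probes were higher and 38 lower at a p under 0.05. Without the replicate block 1 probe was called, without array a of 1:609 cdk8-del 2, and without its array b 3. MET17 was 4.20 higher in 1:594 cdk8-del, and its arrays of the 2 strains do not come near each other. HSP30 read 2.37 and 3.44 in 1:594 cdk8-del, against 1.04 and 1.98 in 1:609 cdk8-del, a difference of 1.40. RGI1, a respiratory growth gene, was 1.05 higher, SPG4, a stationary phase gene, 0.996 higher and ATO2, a putative ammonium transporter, 0.82 higher. Of these 5 genes only MET17 was called without the block, and the SD of HSP30 between the 2 arrays was 0.75 in 1:594 cdk8-del and 0.66 in 1:609 cdk8-del.

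The same truncations were set against 1:666 in the strains that keep CDK8, to see which differences depend on its absence. That comparison uses 6 other arrays. It shares the reference pool and, as both come from 1 fit, the estimate of the spread and the replicate block. It had 17 probes called higher (0.266%) and 25 called lower (0.391%), and without array b of 1:666 the count was 76. Of the 76 probes called without CDK8 and the 42 called with it, 16 were called in the same direction in both, 7 higher and 9 lower, which is 21.1% of the calls without CDK8 and 38.1% of those with it. Another 2, HSP12 and HSP26, were called lower without CDK8 and higher with it. Across all probes the differences correlated with a Pearson r of 0.576, a description over probes that share arrays and are not independent. Of the 10 probes called higher without CDK8, 9 lay above 0 with CDK8 too, and of the 66 called lower, 45 lay below 0. The median over all probes with CDK8 was -0.004, so many probes lie below 0 there in any case. Of the 66 called lower, 30 lay within 0.3 of 0 with CDK8. Estimates for most of the rises were close on both backgrounds. LYS2 rose by 3.13 without CDK8 and 2.94 with it, HPF1 by 1.63 and 1.51, SER3 by 1.35 and 1.27, TIP1 by 0.90 and 0.92, SSP2 by 0.94 and 0.82, and GAS2 by 0.80 and 1.02. For these 6 genes the difference between the 2 effects had an adjusted p between 0.311 and 0.944, and its estimate lay between -0.23 and 0.19, with standard errors of 0.09 to 0.18. FCP1 differed by -3.04 without CDK8 and -2.86 with it. Among the falls, GCV2 (-0.90 and -0.83), PDR15 (-0.91 and -0.87) and DDR48 (-1.23 and -0.90) were also called on both backgrounds.

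**Figure D5:**
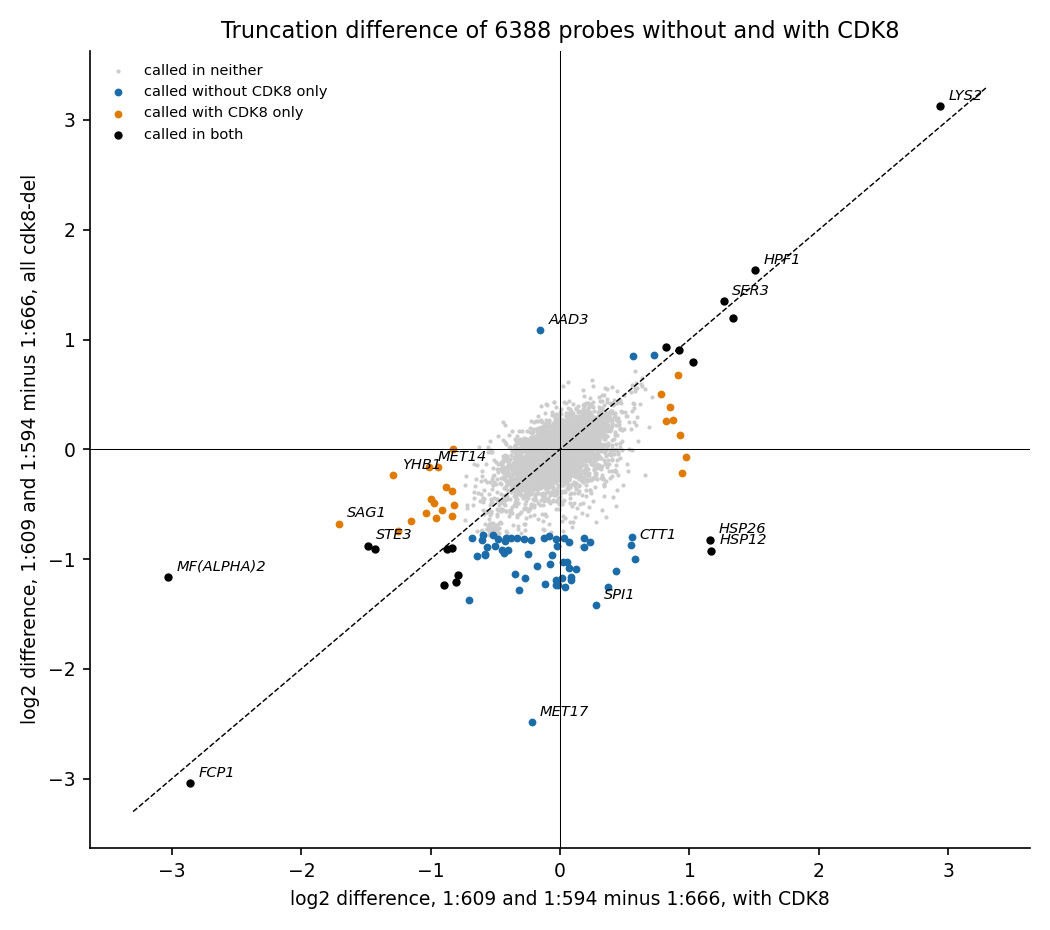
Log2 difference, 1:609 and 1:594 minus 1:666, of 6388 probes among the cdk8-del strains (vertical axis) and among the strains with CDK8 (horizontal axis), coloured by call, with the line of equal differences dashed. LYS2, HPF1, SER3 and FCP1 lie near the line, the blue points of the stress genes lie below it near 0 on the horizontal axis, and MF(ALPHA)2 lies above it at -1.16 and -3.03.

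The test of the difference itself, the effect without CDK8 minus the effect with CDK8, called 7 probes higher (0.11%) and 43 lower (0.673%). Of the 76 probes called without CDK8, 36 (47.4%) were among them. The difference contains the comparison that selected these 76 probes, so an overlap was favoured in advance and is no separate support. The count of calls in the difference depended on the fit. Without the replicate block it was 4, namely MET17, TPS2, YHB1 and ALD3, an aldehyde dehydrogenase that was singled out after its values were seen. It was 26 without array a of 1:666 cdk8-del, 32 without its array b and 29 without array b of 1:666. Of the 55 stress genes 26 were called lower in this difference and 0 higher, with a median of -0.80, and 2 were called without the block. HSP12 had -0.92 ± 0.16 without CDK8 and 1.17 ± 0.16 with it, a difference of -2.09 ± 0.23 (adjusted p = 4.74e-04, and 0.0247 without the block). HSP26 had -0.82 without CDK8 and 1.16 with it, SPI1 -1.42 and 0.28, MSC1 -1.26 and 0.37, CTT1 -0.87 and 0.55, and HXK1 -1.001 and 0.58. TPS2 had -1.19 without CDK8 and -0.03 with it, a difference of -1.16 ± 0.10 (adjusted p = 1.45e-04, and 0.00223 without the block). In the trehalose and glycogen list 7 of 21 were called lower in the difference, and 1 without the block. With CDK8 present, the stress list had 2 genes called higher (HSP12 and HSP26) and 1 lower (YGP1) in the short truncations, with a median of 0.16. The mean level of HSP12 was 1.10 in 1:609 and 1.04 in 1:594, against -0.09 in 1:666. In the other strains with CDK8, fcp1-trunc-1:713 and fcp1-mut, it was 0.95 and 1.01, so 1:666 was the low strain. HSP26 stood at 1.08 in 1:594 but at -0.22 in 1:609, against -0.73 in 1:666.

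Of the 4 alpha-specific genes measured, all had a difference above 0, and 2 of them, MF(ALPHA)2 and SAG1, were called higher in it. Without the replicate block 0 were called. With CDK8 all 4 measured alpha-specific genes were called lower, with a median of -1.60, beside -0.78 without CDK8. MF(ALPHA)2 had -1.16 ± 0.12 without CDK8 and -3.03 ± 0.12 with it, a difference of 1.87 ± 0.18 (adjusted p = 2.31e-04, and 0.018 without the block). Its mean level was -2.76 in 1:609 cdk8-del and -2.88 in 1:594 cdk8-del, against -1.66 in 1:666 cdk8-del, and in the strains with CDK8 -4.23 in 1:609 and -4.01 in 1:594, against -1.09 in 1:666. The smaller fall without CDK8 thus came with higher levels in the short truncations and a lower level in 1:666 cdk8-del than in the strains with CDK8. SAG1 had -0.68 without CDK8 and -1.71 with it, a difference of 1.03 ± 0.15 (adjusted p = 0.0018, and 0.0277 without the block). STE3 had -0.88 and -1.49 and MF(ALPHA)1 -0.34 and -0.88, with differences of 0.61 and 0.54 that were not called. YHB1, the flavohemoglobin that detoxifies nitric oxide, differed by -0.23 ± 0.08 without CDK8 and -1.29 ± 0.08 with it. The difference of 1.06 ± 0.11 was called with and without the block (adjusted p = 3.55e-04 and 0.009). Its mean was -2.48 in 1:609 cdk8-del and -2.25 in 1:594 cdk8-del, against -2.13 in 1:666 cdk8-del, and -2.42 in 1:609 and -2.37 in 1:594, against -1.11 in 1:666. YHB1 was thus low in all 3 strains without CDK8. MET14, the adenylylsulfate kinase of sulfate assimilation, had -0.16 without CDK8 and -1.01 with it. MET17 had -2.49 without CDK8 and -0.22 with it, and its low level in the 5 strains with CDK8 was shared only by 1:609 cdk8-del among those without.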

How the data were processed

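Yeast RNA was measured on 2-colour spotted arrays, 2 for each of 8 strains, each against a reference pool. Per the labels' protocols, strain and pool RNA were isolated by different protocols and amplified by T7 RNA polymerase with external control RNA. The authors deposited, per the file headers, spot intensity and local background intensity in each channel. They also deposited a matrix of log2 ratios, normalised to total mRNA per the series text. Its direction, strain over reference, was read by setting its columns against the scanner values (r between 0.621 and 0.977 on the 16 arrays and between 0.911 and 0.977 on the 6), and the medians of its 16 columns lie between -0.013 and 0.0182. How its background was corrected is unknown here, and it was used only as an alternative.

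Of the 15552 spots on an array, 12776 are gene spots, 2 for each of 6388 probes. Background was corrected with normexp (offset 50), and a lowess curve through the gene spots (span 0.4, 3 robust iterations) was taken from the log2 ratios of each array. Ratios were oriented as strain over pool, and the 2 spots of a probe were averaged. On the 6 arrays median signals ranged over 291.7 to 1058 in the strain channel and 243.4 to 918.7 in the pool channel, over backgrounds of 41 to 61, and 96.5% to 98.7% of probes were above background. The number of arrays limits the precision. One mean per strain and the replicate letter as a block were fitted to all 16 arrays (limma 3.58.1, R 4.3.3), which left 7 residual and 4.89 prior degrees of freedom, and tests are two-sided. The b minus a differences of all 28 pairs of strains correlated, with r between 0.599 and 0.914. Letter and dye coincide, so a part of the letter and a part of the dye in this cannot be told apart. The limits of 0.01 and 1.7 are those of the series text, which does not say whether its p is adjusted.

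Names come from the platform annotation: 5326 probes carried 1 symbol, 5324 matched the RefSeq table of assembly R64 (58 updated), and 1062 have none and appear in counts only. Of 15 genes with more than 1 probe, YDR261W-B had probes whose calls differed. A list of 51 gene groups was written from general knowledge of yeast, and 64 of its 1348 entries had no named probe; 1 of the groups is not reported here. The members and lists were chosen with earlier results of these data known. Named genes were the 12 largest rises and falls called with no overlap between arrays, up to 3 called members of each list, the genotype and marker genes, and the 5 largest in each direction of the CDK8 difference and of 1:594 against 1:609; other genes of the same pathways are given for context. In simulated data with known changes, 0 of 50 probes were called at 1.5 fold, which lies below the fold limit for a call. At each of 2, 3 and 4 fold 50 of 50 were called, and of 6188 unchanged probes 0 were called. These counts check the fit and the limits only. With 1 strain for each label, they give no rate of false calls between strains. Figures were drawn with matplotlib 3.10.9 and pandas 2.3.3 under Python 3.11.15.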

Additional observations from a re-analysis of the deposited data

Results flagged for a closer look

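In 57 named genes the 4 arrays of the short truncations were searched for 1 array far from the other 3, which chance alone marks in about 1 group of 20, and 3 genes were marked. SRB8 stood at 0.009 on array b of 1:594 cdk8-del and was not called in any comparison here. SSN3 stood at -1.48 on array b of 1:609 cdk8-del, above the other 3, where the probe was not above background. HSP26 stood at 3.39 on array b of 1:594 cdk8-del, close to the arrays of 1:666 cdk8-del.

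The truncation difference without CDK8 minus that with CDK8 was called for 23 named genes, with adjusted p from limma between 2.11e-05 and 0.00899 and the changes without the replicate block or single arrays given above. It was positive for MF(ALPHA)2 (1.87), AAD3 (1.24), YHB1 (1.06), SAG1 (1.03) and MET14 (0.85). It was negative for MET17 (-2.27), HSP12 (-2.09), HSP26 (-1.99), SPI1 (-1.70), MSC1 (-1.63), HXK1 (-1.58), CTT1 (-1.42), GPH1 (-1.27), PHM7 (-1.25), TKL2 (-1.22), NQM1 (-1.21), TPS2 (-1.16), PGM2 (-1.15), RTC3 (-1.11), HXT5 (-1.08), FIT2 (-1.08), GLK1 (-1.07) and GND2 (-0.96).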

How the results depend on the processing

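Of the 41 named genes called in the short truncations without CDK8, none changed sign in that comparison under any alternative that was run. For the short truncations against 1:666 without CDK8, 76 probes were called, and 119 with plain background subtraction, 125 on external control spots and 50 without the replicate block; leaving out 1 array of the 6 gave 65 to 87. On external control spots the median of all probes moved to -0.10, and for 1:594 cdk8-del alone to -0.19, and the calls there include this shift. With CDK8 the count of 42 became 88 with plain subtraction and 39 to 76 with 1 array left out. The difference between the effects, 50, became 89 with plain subtraction, 23 with median centring, 4 without the block and 26 to 66 with 1 array left out. For 1:609 cdk8-del alone, 80 became 140 with plain subtraction and 48 without the block. For 1:594 cdk8-del alone, 72 became 113 with plain subtraction, 152 on external control spots and 31 without the block. For 1:594 against 1:609 without CDK8, 6 became 1 with median centring, 1 without the block and 2 to 7 with 1 array left out. Of the 41 named and called genes, 31 were called without the block, 36 with median centring and 40 with plain subtraction. Array signal limits SSN3 alone among the named genes.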

Other observations

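Outside the naming rule, and singled out after their values were seen, 3 open reading frames of Ty retrotransposons were called lower in the short truncations without CDK8: YDR210W-B by -0.92 ± 0.13, YFL002W-B by -0.88 ± 0.10 and 1 of the 2 probes of YDR261W-B by -0.81 ± 0.13. YDR210W-B read -0.16 and -0.46 in 1:609 cdk8-del and -0.26 and -0.71 in 1:594 cdk8-del, against 0.74 and 0.31 in 1:666 cdk8-del. The other probe of YDR261W-B differed by -0.05 ± 0.08. Ty elements are near-identical copies, so which of them gave the signal is uncertain. With CDK8 the same truncations differed by -0.41 at YDR210W-B and by -0.50 at YFL002W-B, and neither was called.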
